A study of Mus musculus with 6 samples.

Results

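The genes described here sense DNA in the cytosol or carry, pass on or limit that signal: Cgas, Aim2, Tmem173, Tbk1, Ikbke, Irf3, Trex1, Enpp1 and Samhd1. They were found by matching these 9 symbols against the 55536 genes listed in each library, and each symbol matched 1 row. Total RNA was sequenced from 6 melanomas grown under the skin of C57BL/6J mice from B16, an established mouse melanoma line of the C57BL/6 strain, and collected on day 13. In 3 tumors the injected cells carried a vector control, and in the other 3, labelled ATM KO, the gene of the DNA-damage kinase ATM had been knocked out. The labels do not say how ATM was disrupted, whether the knockout cells were 1 clone or a pool, or whether any mouse gave more than 1 tumor. What the p-values weigh is thus the spread among these 6 tumors, which may be partly technical, and genotype cannot be told apart from the cell line that carries it. In both groups the host cells within the tumor came from mice for which no gene disruption is stated.

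DNA in the cytosol, whether from a virus, from a damaged nucleus or from mitochondria, is bound by the enzyme cGAS, which makes the cyclic dinucleotide cGAMP. cGAMP binds STING on the endoplasmic reticulum, and STING then moves to the Golgi and recruits the kinase TBK1, which phosphorylates the transcription factor IRF3. IRF3 switches on the interferon beta gene and chemokine genes, while nucleases and hydrolases limit the signal by removing DNA or cGAMP. The title of the series names this pathway, so the comparison asks whether its transcripts differ between tumors of knockout and control cells. Much of the pathway is controlled at the protein level, which transcript counts do not measure.

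None of the 8 members that could be tested passed the threshold in ATM knockout tumors against controls. The test was edgeR's quasi-likelihood test with Benjamini-Hochberg adjustment over the 15696 genes with enough counts, at an adjusted p of 0.05. DESeq2 and limma-voom called none of the 8 either. Over all genes tested, edgeR called 4.96% (2.21% higher and 2.75% lower), DESeq2 14.6% and limma-voom 4.38%. At an unadjusted p below 0.05 edgeR had 1 member, Cgas, against 23% of all genes (10.6% of all genes in the higher direction). The median log2 fold change (knockout minus control) of the 8 members was 0.06, beside -0.01 over all genes tested, and 6 of the 8 were above 0, as were 49.1% of all genes.

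Libraries held 22101124 to 29037715 counts on genes. Levels below are CPM, the usual depth-scaled unit for counts, after TMM scaling of library sizes, with SD over 3 tumors per group, and fold changes are on the log2 scale with their standard error (SE). Atm itself was read at 105 ± 8.09 CPM in controls and 112 ± 18.0 CPM in knockouts (edgeR adjusted p = 0.707), and since host cells carry it and the disrupted part is not given, this does not check the labels. Pigment cell markers, 8 of 8 tested, summed to 19610 to 28160 CPM in controls and 19900 to 20120 CPM in knockouts. Of these 8, edgeR called 1, Dct, which was lower, at 8521 ± 1703 and 5079 ± 64.3 CPM (-0.75, edgeR adjusted p = 0.0434). DESeq2 also called Dct lower, and Slc45a2 higher. Of 5 keratinocyte markers none had enough counts to test. Vector control tumor 1 stood apart in its host transcripts, with the lowest sums of the leukocyte, macrophage and fibroblast markers among the 6 tumors.

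Cgas, the gene of the sensor itself, was the only member whose groups did not overlap. It lies on chromosome 9, from 78430526 to 78443237 (GRCm38, minus strand). Vector control tumors 1, 2 and 3 held 324, 296 and 377 Cgas counts, or 14.3, 13.5 and 15.6 CPM. ATM knockout tumors 1, 2 and 3 held 551, 568 and 467 counts, or 22.6, 20.3 and 15.98 CPM. All 3 knockout tumors were thus above all 3 control tumors, but knockout tumor 3 lay close to control tumor 3 and well below the other knockout tumors. The means were 14.5 ± 1.04 and 19.6 ± 3.36 CPM, a log2 fold change of 0.44 ± 0.15 (SE) that did not pass (edgeR adjusted p = 0.145). Its 95% interval ran from 1.06-fold to 1.73-fold. Groups failed to overlap in 29.7% of all tested genes (14.3% with knockout higher and 15.4% with knockout lower), and 15.6% of all tested genes had a smaller p than Cgas. Two-sided exact permutation of the 6 tumors gave p = 0.1 for Cgas, the smallest value that 3 against 3 can give. Within 5 Mb on either side of Cgas, 45 other genes were tested, with a median log2 fold change of -0.20 and 2 lower calls, so the neighbors of Cgas were not higher with it.

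**Figure D1:**
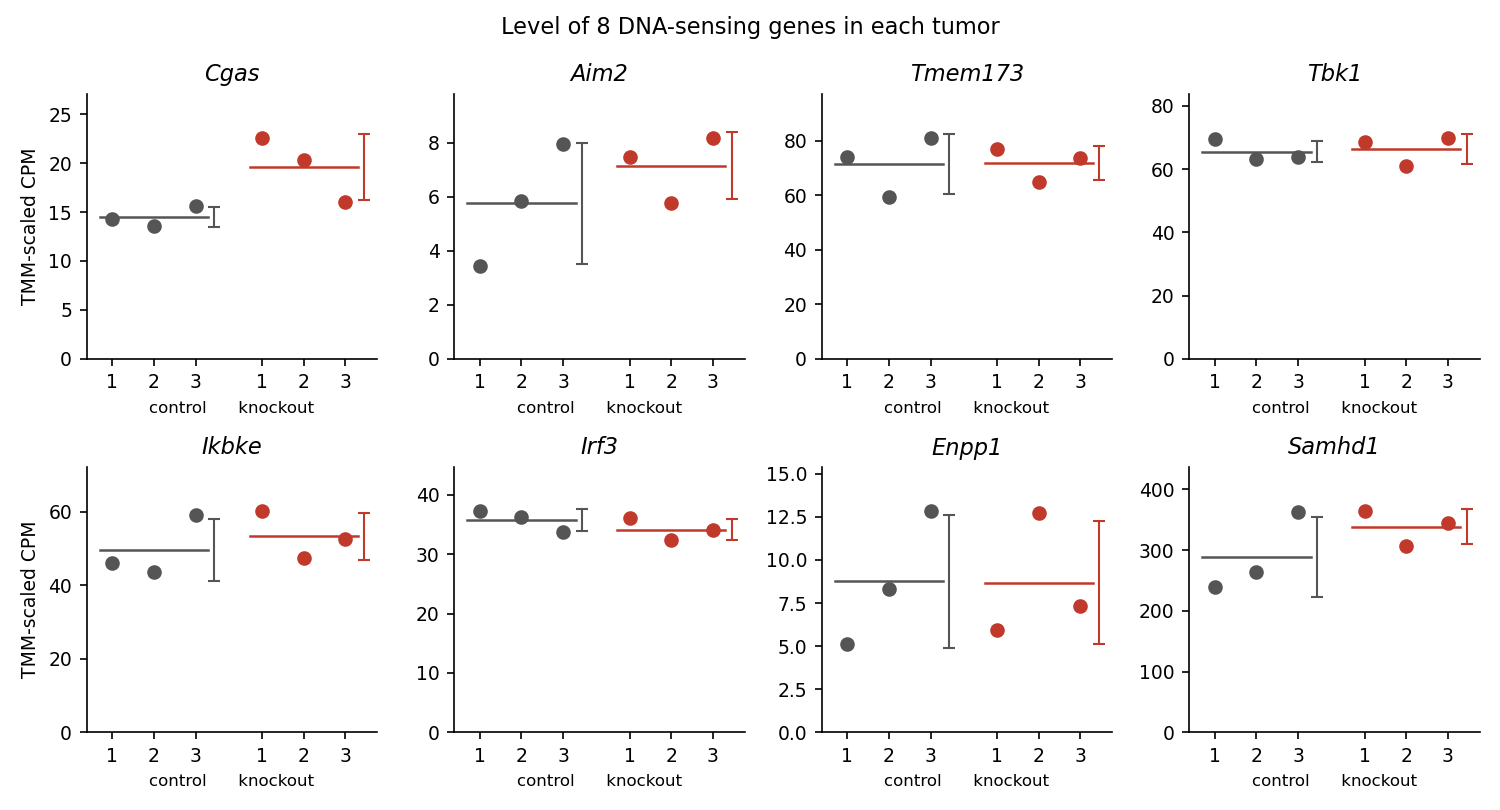
TMM-scaled CPM (vertical axes, starting at 0) of 8 members in vector control tumors 1 to 3 (gray) and ATM knockout tumors 1 to 3 (red), with horizontal lines at the group means and bars of 1 SD beside them. The groups are apart only for Cgas, where knockout tumor 3 (15.98 CPM) lies just above control tumor 3 (15.6 CPM).

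Aim2 encodes the other DNA sensor of the set, a receptor that binds double-stranded DNA and assembles an inflammasome rather than signaling through STING. Its levels were 3.45, 5.85 and 7.95 CPM in vector control tumors 1, 2 and 3, from 78, 128 and 192 counts. In ATM knockout tumors 1, 2 and 3 they were 7.46, 5.76 and 8.18 CPM, from 182, 161 and 239 counts. Control tumor 1 was low and the other 5 tumors overlapped. The log2 fold change was 0.31 ± 0.32 (edgeR adjusted p = 0.636), with a 95% interval from 0.729-fold to 2.11-fold, so a change of 2-fold in the higher direction was not outside it. Without vector control tumor 1 the value was 0.05, and without vector control tumor 3 it was 0.63.

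Tmem173, the gene of STING (chromosome 18, 35733679 to 35740554), was level between the groups. Control tumors held 74.0, 59.3 and 81.2 CPM and knockout tumors 77.0, 65.0 and 73.7 CPM. The groups overlapped throughout, and all 3 knockout values lay inside the control range. The log2 fold change of 0.01 ± 0.13 (edgeR adjusted p = 0.985) had a 95% interval from 0.810-fold to 1.25-fold. Cgas and Tmem173 thus had different values under the same contrast: the log2 ratio of Cgas to Tmem173 was -2.37, -2.13 and -2.38 in control tumors 1, 2 and 3 and -1.77, -1.68 and -2.21 in knockout tumors 1, 2 and 3. The ratio differed by 0.41 on average, and the groups overlapped (two-sided exact permutation p = 0.2, or 0.8 adjusted over the 4 member ratios computed).

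Tbk1 and Ikbke encode related kinases that act below STING, TBK1 being present in most cell types and IKK-epsilon, the product of Ikbke, being inducible in many immune cells. Tbk1 (chromosome 10, 121546455 to 121586787) was among the steadiest members, at 69.5, 63.2 and 64.0 CPM in control tumors and 68.4, 61.0 and 69.9 CPM in knockout tumors. Its coefficient of variation was 5.23% among the control tumors and 7.24% among the knockout tumors. The log2 fold change was 0.02 ± 0.08 (edgeR adjusted p = 0.925), with a 95% interval from 0.888-fold to 1.16-fold. Ikbke (chromosome 1, 131254343 to 131279606) varied more, with 46.1, 43.5 and 59.2 CPM in controls and 60.1, 47.4 and 52.5 CPM in knockouts. Control tumor 3 and knockout tumor 1 were the highest for Ikbke, and the groups overlapped. Its log2 fold change was 0.10 ± 0.14 (edgeR adjusted p = 0.740; interval 0.847-fold to 1.36-fold). The log2 ratio of Ikbke to Tbk1 ran from -0.59 to -0.11 in control and from -0.41 to -0.19 in knockout tumors, so no shift between the kinases stood out from the spread (two-sided exact permutation p = 0.6, or 0.8 adjusted over the same 4 ratios).

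Irf3, the transcription factor that the kinases activate (chromosome 7, 44997648 to 45002848), had 37.2, 36.2 and 33.7 CPM in controls and 36.1, 32.4 and 34.01 CPM in knockouts. The spread within each group was about as wide as the distance between them. The log2 fold change was -0.06 ± 0.08 (edgeR adjusted p = 0.701), with a 95% interval from 0.839-fold to 1.09-fold. For 4 members (Tmem173, Tbk1, Ikbke and Irf3) the whole 95% interval lay within a change of 1.5-fold in either direction. For Cgas, Aim2, Enpp1 and Samhd1 it did not, and these data leave a wider range of values for them.

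**Figure D2:**
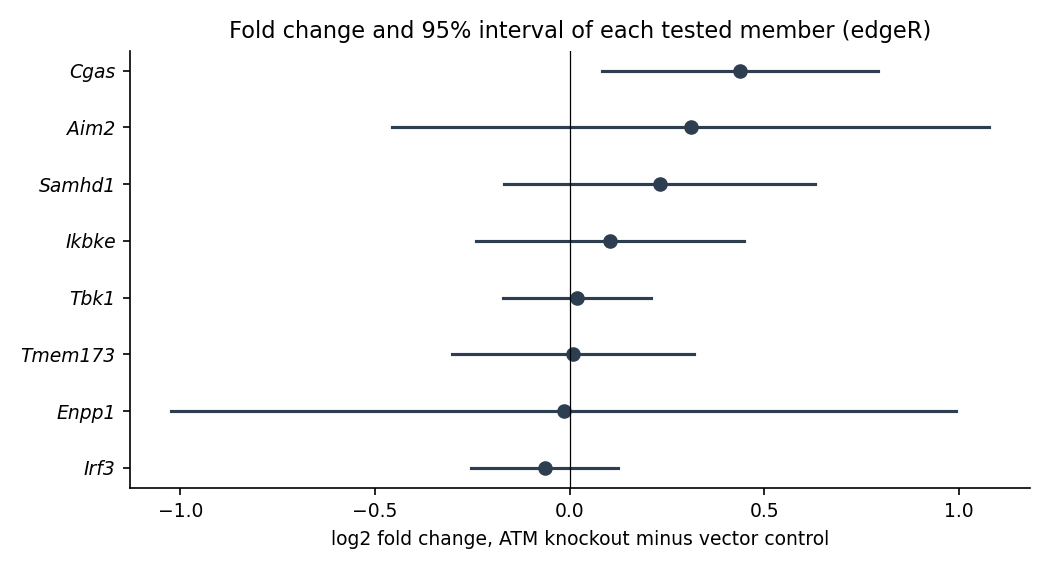
Log2 fold change (horizontal axis, ATM knockout minus vector control; points) with its 95% interval from the edgeR fit (lines) for the 8 tested members, ordered by fold change. The interval of Cgas alone lies above 0, without adjustment for the number of genes, and those of Enpp1 and Aim2 are the widest.

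Trex1, Enpp1 and Samhd1 limit the signal. Trex1 encodes the main exonuclease that degrades DNA in the cytosol, and it was listed at 0 in all 6 libraries. Its annotated exons (chromosome 9, 109057933 to 109059734, minus strand) cover 1147 bases, and all 1147 also belong to exons of Atrip, a gene on the same strand (109057933 to 109074124) that encodes the partner of the kinase ATR. In Trex1-202, each of the 1005 stretches of 50 bases also occurs in an Atrip transcript of GENCODE M21. In Trex1-201 it is 989 of 1035, or 95.6%. The whole Trex1 coding sequence lies inside 2 of the 9 annotated Atrip transcripts, Atrip-204 (classed as nonsense-mediated decay) and Atrip-205 (retained intron). The first 60 coding bases of Trex1, with the start codon in capitals, are shown because a read from them fits both genes, and in GRCm38 they lie at chr9:109058862-109058921 on the minus strand.
Trex1: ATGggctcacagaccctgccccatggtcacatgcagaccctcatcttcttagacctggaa
A count of 0 for Trex1 in these files is thus no measure of its level, no fold is given, and Trex1 was not tested. Reads that fell on several genes made up between 1.21% and 1.38% of each library and are not split by gene. Control tumors averaged 24.8 ± 0.589 CPM of Atrip, and knockout tumors 23.1 ± 1.90 CPM (difference of -0.10 on the log2 scale, edgeR adjusted p = 0.564). Among the other members, exon bases shared with another gene were at most 4.87%, for Cgas, and lay on the opposite strand.

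**Figure D3:**
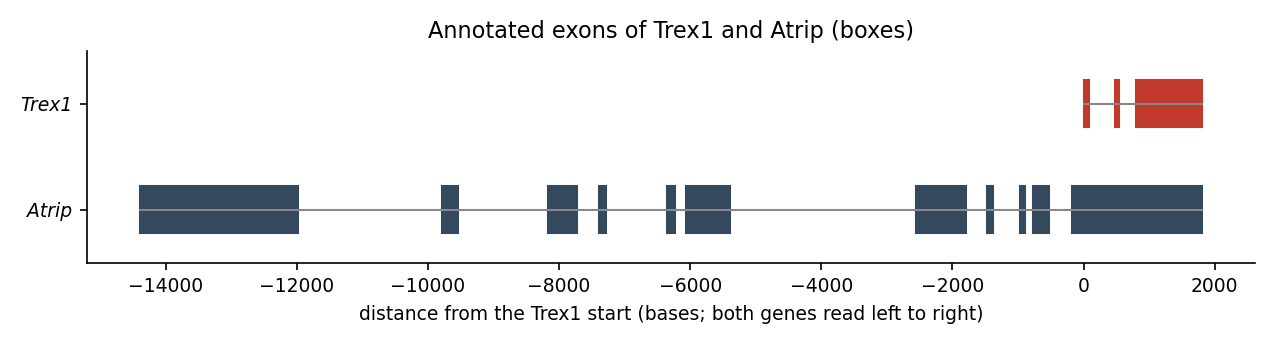
Annotated exons (boxes) of Trex1 and Atrip in GENCODE M21, drawn to scale against the distance in bases from the Trex1 start, with both genes read from left to right. Every Trex1 box lies over the last Atrip box, so all 1147 Trex1 exon bases are shared.

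Enpp1 encodes the hydrolase that breaks down cGAMP outside cells. It was the scarcest tested member per length and the most variable in both groups. Control tumors 1, 2 and 3 held 5.13, 8.32 and 12.8 CPM (116, 182 and 310 counts) and knockout tumors 1, 2 and 3 held 5.95, 12.7 and 7.36 CPM (145, 355 and 215 counts). The high tumors, control 3 and knockout 2, are also those with the highest sums of 6 skeletal muscle markers. Those sums were 18.4, 56.0 and 6695 CPM in control tumors 1, 2 and 3 and 2324, 6256 and 518 CPM in knockout tumors 1, 2 and 3, with none of the 6 markers at 0. The part of muscle in the Enpp1 values was not tested. Its log2 fold change was -0.02 ± 0.42 (edgeR adjusted p = 0.991), with a 95% interval from 0.492-fold to 1.99-fold.

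Samhd1 encodes a phosphohydrolase that depletes deoxynucleotides and takes part in the handling of DNA at stalled replication forks. It was the most abundant member, at 239, 264 and 363 CPM in control tumors 1, 2 and 3 and 364, 307 and 345 CPM in knockout tumors 1, 2 and 3. Control tumors 1 and 2 were below all knockout tumors, while control tumor 3 was level with the highest of them. The log2 fold change was 0.23 ± 0.17 (edgeR adjusted p = 0.478; interval 0.890-fold to 1.55-fold), and it was 0.11 without vector control tumor 1 and 0.44 without vector control tumor 3. Samhd1 lies on chromosome 2 (157097533 to 157135265) among genes that were mostly higher. Of 115 other tested genes within 5 Mb, 13 rose and none fell in edgeR, and their median was 0.25, close to the value of Samhd1. The part of this region in the Samhd1 value was not tested.

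Levels were compared between genes per kilobase of exon not shared with another gene, merged over all annotated transcripts, so a gene with long, rarely used exons is understated. On this scale (CPM per kb, mean of the control tumors) the order was Samhd1 at 31.5, Tmem173 at 26.1, Tbk1 at 16.8, Irf3 at 10.7, Ikbke at 5.64, Cgas at 3.69, Aim2 at 1.64 and Enpp1 at 0.854. Over all 6 tumors the ranges of 3 neighbors in this order overlapped: Samhd1 with Tmem173, Ikbke with Cgas, and Aim2 with Enpp1. The ranges of the other 4 neighboring pairs did not overlap. Transcripts of STING and TBK1 were therefore read at higher levels per length than those of the sensor cGAS in each of the 6 tumors, by at least the gap between 15.6 and 5.76 CPM per kb.

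Aim2 varied together with the summed leukocyte markers over the 6 tumors, both being lowest in control tumor 1, a relation that was not tested. The 8 leukocyte markers, all tested and none at 0, summed to 374, 614 and 895 CPM in control tumors 1, 2 and 3 and to 761, 597 and 767 CPM in knockout tumors 1, 2 and 3. Aim2 alone spanned 1.25 on the log2 scale over the 6 tumors, and the log2 ratio of Aim2 to the marker sum spanned 0.27. For no other member was the ratio to this sum narrower than 0.65 (Samhd1, whose own level spanned 0.61). A member much steadier than the marker sum must give a wide ratio, so this span does not rank the steady members. The Aim2 ratio was -6.76, -6.71 and -6.82 in control tumors 1, 2 and 3 and -6.67, -6.70 and -6.55 in knockout tumors 1, 2 and 3. The ratios did not overlap between the groups but differed by only 0.12 on average (two-sided exact permutation p = 0.1, or 0.8 adjusted over the 32 ratios of members to marker sums computed). In bulk tumors, fewer cells of a type and less RNA per cell cannot be told apart.
Cgas did not follow these markers: its ratio to the leukocyte sum spanned 1.14, more than its own 0.74. T cell markers, of which all 8 were tested and none was at 0, summed to 38.1 to 55.1 CPM in controls and 53.7 to 107 CPM in knockouts. The sums overlapped, and none of the 8 passed in edgeR, while DESeq2 called 2 higher. Knockout tumor 1 had both the highest T cell sum (107 CPM) and the highest Cgas (22.6 CPM) of the 6 tumors, whereas knockout tumor 2, with 20.3 CPM of Cgas, had a T cell sum of 53.7 CPM, below control tumor 3. The 6 endothelial markers, none at 0, summed to 150 to 259 CPM in controls and 122 to 146 CPM in knockouts, without overlap. None of them passed in edgeR, while DESeq2 called 1 lower. Groups did not overlap for 3 of the 6, lower in knockouts, beside 15.4% of all tested genes. The part of these cell types in the Cgas difference was not tested.

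**Figure D4:**
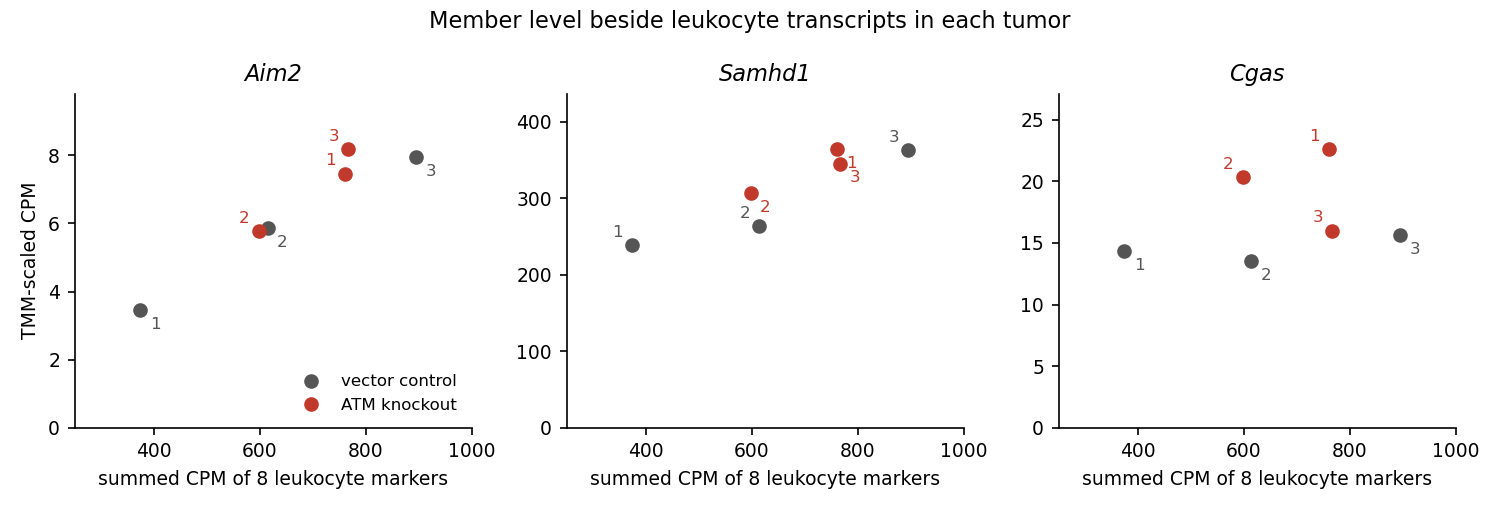
TMM-scaled CPM of Aim2, Samhd1 and Cgas (vertical axes, starting at 0) against the summed CPM of 8 leukocyte markers (horizontal axes, starting at 250) in vector control (gray) and ATM knockout tumors (red), with tumor numbers beside the points. Aim2 lies along a line from control tumor 1 (3.45 CPM) to control tumor 3 and knockout tumor 3 (7.95 and 8.18 CPM), while Cgas differs between tumors with similar leukocyte sums.

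Genes with the most similar pattern over the 6 tumors were found among 11834 genes by the root mean square difference of log2 CPM, each gene centered on its own mean. For Cgas the nearest was Sars2, a mitochondrial seryl-tRNA synthetase, at 0.05, followed by Iffo1 at 0.06 and Mospd3 at 0.07. For Aim2 it was Ncf4, a subunit of the phagocyte NADPH oxidase, at 0.06, with Crybg1 and Cd300c2 next at 0.07 and 0.08. Nearest to Samhd1 was Dock8, a guanine nucleotide exchange factor of leukocytes, at 0.05, followed by Fnbp1 and Tep1, both at 0.05. Nearest to Ikbke was Nod1, a receptor for bacterial peptidoglycan, at 0.05, followed by B3galt1 at 0.06 and Pdlim1 at 0.07. Tmem173 lay nearest to Hint3 at 0.05, then to Olfr56 at 0.06 and Atox1 at 0.07. Tbk1 lay nearest to Sri at 0.02, then to Brk1 and Cdk19, both at 0.03. Irf3 lay nearest to Cript and Eef1akmt2, both at 0.02, then to Ip6k1 at 0.025. No gene was this near to Enpp1, whose closest were Adssl1, Ncs1 and Serpine2, all at 0.18. These distances were not scaled to how much a member varied, so steady members have small ones. Tbk1 spanned 0.198 and Irf3 0.201 on the log2 scale over the 6 tumors, against 1.23 for Aim2 and 1.31 for Enpp1.

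Other genes of the pathway were read from 7 lists by role, 95 genes of which 90 were tested. In edgeR 1 rose and 4 fell, 5.56% of those tested, near the 4.96% called among all genes, and their median log2 fold change was -0.09. The 4 that fell were Rnaseh2b, Rnaseh2a, Sec24c and Lrrc8a, and the 1 that rose was the chemokine gene Ccl5.

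Genes that remove DNA or RNA-DNA hybrids held 2 of the 4 decreases. Rnaseh2a encodes the catalytic subunit of RNase H2, an enzyme that takes ribonucleotides out of DNA, and Rnaseh2b encodes one of its accessory subunits. Rnaseh2b was at 27.1, 30.5 and 28.6 CPM in controls and 20.2, 20.8 and 18.1 CPM in knockouts. Rnaseh2a was at 34.3, 32.0 and 30.8 CPM in controls and 25.6, 24.4 and 23.0 CPM in knockouts. For both, every knockout tumor was below every control tumor. The log2 fold changes were -0.54 ± 0.09 for Rnaseh2b (edgeR adjusted p = 0.0346) and -0.41 ± 0.08 for Rnaseh2a (edgeR adjusted p = 0.0462). Rnaseh2c, the remaining subunit, was at 20.6 ± 1.55 and 19.97 ± 1.48 CPM (-0.05, edgeR adjusted p = 0.851). Both genes that fell lie on chromosomes whose genes were lower in the median. On chromosome 14, which holds Rnaseh2b, the median was -0.35 both over the 532 other tested genes and over the 72 within 5 Mb (1 rose, 16 fell). On chromosome 8, which holds Rnaseh2a, it was -0.26 over 825 other tested genes and -0.29 over the 87 within 5 Mb (none rose, 19 fell). The part of these chromosomes was not tested. Of the 13 tested members of the list 2 fell and none rose, with a median of -0.04. Trex2 and Dnase1 had too few counts to test.

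Among 17 genes of STING traffic and its regulators, Sec24c fell and none rose in edgeR, while DESeq2 called 3 higher (Stim1, Rnf5 and Tollip) and 4 lower. Sec24c encodes a coat protein of the vesicles that carry STING out of the endoplasmic reticulum, and its levels were 255, 240 and 216 CPM in controls and 177, 171 and 175 CPM in knockouts. The groups did not overlap, and the log2 fold change was -0.44 ± 0.08 (edgeR adjusted p = 0.0372). It lies on chromosome 14, and 58 other tested genes within 5 Mb had a median of -0.23, 5 of them lower calls. In this list 11 of 17 genes had groups that did not overlap, 5 higher and 6 lower, beside 29.7% of all tested genes. Stim1, an endoplasmic reticulum calcium sensor that holds STING there, was at 60.9 ± 4.07 and 77.9 ± 3.74 CPM and missed the threshold (0.36 ± 0.08, edgeR adjusted p = 0.0506). It passed in edgeR with at least 1 CPM in 3 libraries (adjusted p = 0.0377), with library size alone (0.0364) and with no filter (0.0321). The same held with non-robust dispersions (0.0496) and without vector control tumor 1 (0.0349). Stim1 did not pass with RLE size factors, with the replicate block, in limma-voom or when any of the other 5 tumors was left out.

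Lrrc8a encodes the obligate subunit of the volume-regulated channels, through which cGAMP can pass between cells. It was at 17.9, 17.7 and 17.6 CPM in controls and 12.1, 11.9 and 13.7 CPM in knockouts. The control tumors were nearly equal and all knockout tumors lay below them. The log2 fold change was -0.50 ± 0.10 (edgeR adjusted p = 0.0462), the 1 call among 6 tested cGAMP transport and hydrolysis genes, whose median was -0.16. It lies on chromosome 2, where the median was 0.15 over 1193 other tested genes but -0.13 over the 189 within 5 Mb (1 rose, 10 fell). With 1 tumor left out in turn, Sec24c and Rnaseh2b still passed without vector control tumor 1 and lost the call when any of the other 5 was left out, while Lrrc8a and Rnaseh2a lost it in all 6 cases. Lrrc8a also lost its call when library size alone set the scale, when low counts were kept and when dispersions were not robust. Rnaseh2a lost it when library size alone set the scale, when low counts were kept and in limma-voom.

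**Figure D5:**
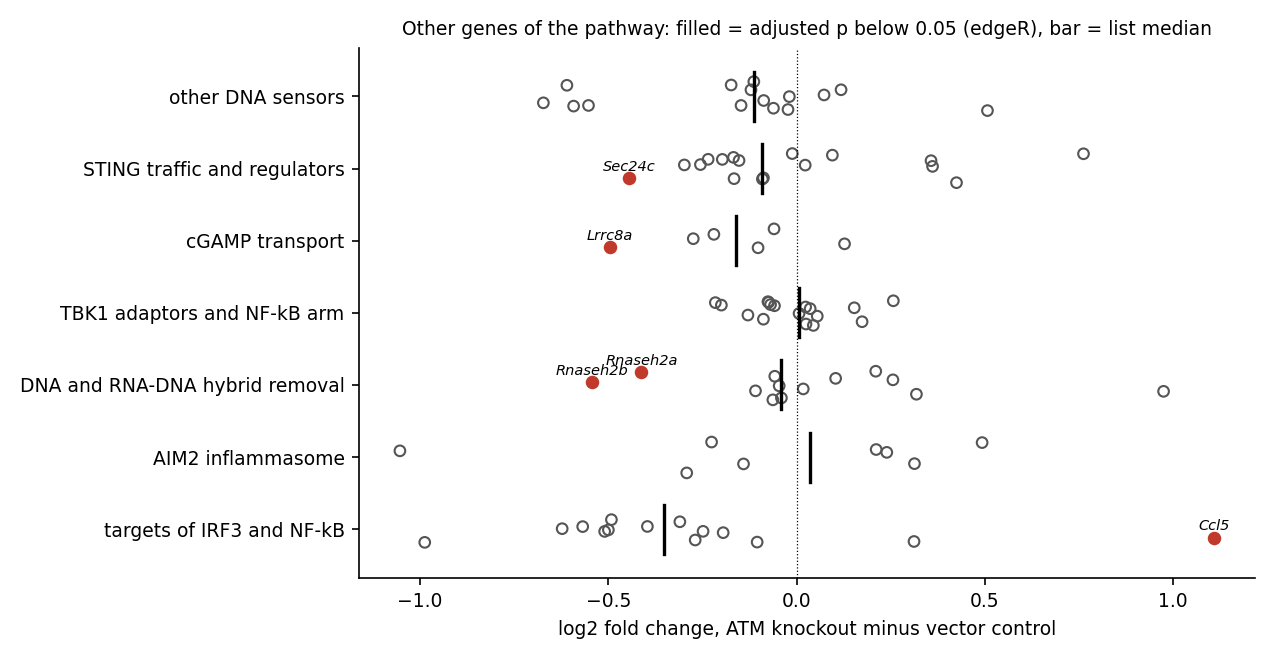
Log2 fold change (horizontal axis, ATM knockout minus vector control) of each tested gene in 7 lists of other pathway genes, as circles spread vertically at random within a list. Red filled circles passed at an adjusted p below 0.05 in edgeR (Sec24c, Lrrc8a, Rnaseh2a, Rnaseh2b and Ccl5), and black bars are list medians, the lowest being -0.35 for targets of IRF3 and NF-kB.

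In the TBK1 adaptor and NF-kB list none of 17 passed in edgeR or limma-voom. Unadjusted p fell below 0.05 for 1 higher and 2 lower genes, and DESeq2 called Ikbkb lower. Over all genes tested, 23% had an unadjusted p below 0.05 in edgeR, and DESeq2 called 14.6%. The median was 0.01. Ikbkb, a kinase of the NF-kB arm, was at 111 ± 4.27 and 95.3 ± 3.26 CPM (edgeR adjusted p = 0.112), and Azi2, a TBK1 adaptor, at 123 ± 9.43 and 107 ± 3.29 CPM (edgeR adjusted p = 0.189). Of the 8 genes of the AIM2 inflammasome none passed in edgeR or limma-voom. The only unadjusted p below 0.05, which DESeq2 called lower, was that of Il1b, the gene of interleukin 1 beta, at 3.95 ± 0.878 and 1.90 ± 0.626 CPM (edgeR adjusted p = 0.112). Gsdmd, the pore-forming effector of that pathway, was at 40.4 ± 3.54 and 47.8 ± 4.82 CPM (edgeR adjusted p = 0.238).

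The relatives of Aim2 on chromosome 1 did not share the sign of its estimate, which was itself smaller than its SE (0.31 ± 0.32). All 7 tested relatives in the list of other DNA sensors had log2 fold changes below 0, from -0.67 to -0.02, although none passed in edgeR. Over all tested genes 49.1% were above 0. Ifi205, Ifi209 and Ifi213 were at -0.17, -0.06 and -0.02. Mndal was at 108, 79.2 and 98.1 CPM in controls and 62.4, 51.7 and 72.8 CPM in knockouts, and Ifi203 at 193, 122 and 152 CPM in controls and 103, 91.7 and 115 CPM in knockouts. Both had groups that did not overlap, as the only 2 of the 15 genes in this list, beside 15.4% of all tested genes with knockout lower. Their log2 fold changes were -0.61 ± 0.16 for Mndal (edgeR adjusted p = 0.0863) and -0.59 ± 0.18 for Ifi203 (edgeR adjusted p = 0.115), and DESeq2 called both. Ifi204, a human IFI16 relative, was at 119 ± 16.9 and 81.1 ± 26.9 CPM (edgeR adjusted p = 0.257). These genes are close copies of each other, so how reads were shared out among them is uncertain. Over the 15 tested genes of this list none passed in edgeR or limma-voom, and the median was -0.11. At an unadjusted p below 0.05 in edgeR there were 2, both lower, beside 23% of all tested genes in either direction.

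Promoter sequences of the members and of the listed genes were compared next. The core of the interferon-stimulated response element, GAAANNGAAA (either strand; overlapping matches counted), was searched from 250 bases before to 50 bases after each RefSeq start site in GRCm38.p6, after the fold changes were known. It occurred in 3.44% of 32851 promoters and in 3.99% of 27025 genes. Tmem173 had no RefSeq promoter among the sequences used and was not searched. Of the 8 other members, here with Trex1, none held these letters, which says nothing of the factors that bind elsewhere. In the list of other DNA sensors 5 of 12 genes held it, and in the list of IRF3 and NF-kB targets 5 of 13. In the other 5 lists 1 gene held it, Pld3, which encodes an endolysosomal exonuclease and was at 0.21 (edgeR adjusted p = 0.107; DESeq2 called it higher). The 10 sensor and target genes with the match were all below 0, but so were 5 of 7 sensor genes and 6 of 7 tested target genes without it, so the sign did not set them apart. These 10 genes were picked by the match, so its letters show no likeness between the Aim2 relatives and the targets. Only the relatives are also alike in the bases just after it. Windows are given for these 10 genes. Each is 30 bases, 5′ to 3′ on the strand of the gene, with the match in capitals (TTTCNNTTTC where it lies on the other strand).
Mndal: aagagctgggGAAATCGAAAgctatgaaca
Ifi203: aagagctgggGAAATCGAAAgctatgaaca
Ifi211: caaagccaggGAAATTGAAAgctatgaacg
Ifi205: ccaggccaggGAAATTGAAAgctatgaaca
Ifi213: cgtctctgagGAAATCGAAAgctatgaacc
Cxcl10: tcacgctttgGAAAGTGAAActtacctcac
Isg15: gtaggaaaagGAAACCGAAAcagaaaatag
Ifit1: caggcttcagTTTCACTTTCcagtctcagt
Ifit3: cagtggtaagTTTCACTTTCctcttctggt
Rsad2: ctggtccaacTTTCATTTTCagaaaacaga
The Mndal window lies at chr1:173880204-173880233 and the Ifi203 window at chr1:173942508-173942537, both on the minus strand and 36 and 35 bases before the start site. Their 30 bases are the same. The median log2 fold change was -0.59 for the 5 DNA sensor genes with the match and -0.06 for the 7 without it. All 5 with the match are relatives of Aim2 and close copies of each other, so they are not independent cases. Their values ran from -0.67 to -0.02. Among targets it was -0.50 for the 5 with the match and -0.27 for the 7 tested genes without it. No test was made of these differences.

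Targets of IRF3 and NF-kB had the lowest median of the 7 lists, -0.35, with 2 of 14 above 0. The median was -0.62 without ATM knockout tumor 3. Ccl5, a chemokine that attracts T cells, rose from 6.77, 9.37 and 9.23 CPM in control to 24.1, 14.8 and 15.8 CPM in knockout tumors (1.11 ± 0.23, edgeR adjusted p = 0.0495), and this call ended without each of the 6 tumors in turn, in limma-voom, when library size alone set the scale and when dispersions were not robust. Knockout tumor 1 was highest both for Ccl5 and for the T cell marker sum. Of the 8 T cell markers 4 did not overlap between the groups, all higher in knockouts, beside 14.3% of all tested genes. Of the 8, 7 were above 0. The largest change among them was that of Cd8a, at 10.4, 9.51 and 11.6 CPM in controls against 29.1, 13.8 and 20.5 CPM in knockouts (1.01, edgeR adjusted p = 0.0883). The part of T cells in the Ccl5 value was not tested. Cxcl10, another T cell chemokine, was lower in each knockout tumor than in any control tumor without passing, at 298, 179 and 242 CPM in controls and 139, 120 and 103 CPM in knockouts (-0.99 ± 0.21, edgeR adjusted p = 0.0525). DESeq2 called Cxcl10 lower and Ccl5 higher, and limma-voom neither. Isg15, a ubiquitin-like interferon-stimulated gene, was at 161, 112 and 120 CPM in controls and 81.5, 83.4 and 115 CPM in knockouts (-0.49 ± 0.19, edgeR adjusted p = 0.193). Rsad2, which encodes the antiviral enzyme viperin, was at 429, 294 and 351 CPM in controls and 230, 212 and 317 CPM in knockouts (-0.50 ± 0.20, edgeR adjusted p = 0.203). Both overlapped between the groups. Knockout tumor 3 was the highest of its group for each, and control tumor 1 the highest of all 6 tumors. Of other interferon-stimulated genes in the list, Ifit1 was at -0.57 (edgeR adjusted p = 0.325). Ifit3, Oasl1 and Ifit2 were nearer to 0, at -0.25, -0.27 and -0.10 (edgeR adjusted p = 0.506, 0.589 and 0.881). Ifnb1, the interferon beta gene itself, had 2, 3 and 1 counts in control and 0, 0 and 1 in knockout tumors, too few to test.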

How the data were processed

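Counts per gene were deposited by the authors as raw counts, with 1 file for each library. The tools HTSeq, STAR, SAMtools, cutadapt and Trim Galore and the builds GRCm38 and mm10 are named per the submitters' processing notes, without versions, roles or order. For the strand setting, the sources used here give nothing. Reads outside genes (16.7% to 18.2%) and on several genes (1.21% to 1.38%) were left out of library sizes. All 55536 identifiers matched GENCODE M21, which gave coordinates and exons. Genes were filtered with filterByExpr (minimum count 10, minimum total 15), scaled by TMM and tested with edgeR 4.0.16 (robust quasi-likelihood, genotype as the term); limma 3.58.1 and DESeq2 1.42.0 were alternatives. The fit was tested on simulated data. No 2 libraries agreed within sampling noise.

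Members and lists were chosen with earlier results of these data known. Genes were named by rule: all members, Atm, up to 5 called genes per pathway list or else the 2 with the smallest p, and the 3 most similar patterns (mean of at least 2 CPM, prior count 2). Rnaseh2c, Stim1, Rnf5, Tollip, Pld3, Cd8a, Dct, Slc45a2, the Aim2 relatives, Atrip and the named targets other than Ccl5 were chosen after their values were seen. Promoters are from RefSeq.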

Additional observations from a re-analysis of the deposited data

How the results depend on the processing

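None of the 8 tested members passed under any of the 14 alternatives. Cgas, Ikbke, Irf3, Samhd1 and Aim2 kept their direction in all of them. With 1 tumor left out in turn, log2 fold changes ran from 0.32 to 0.57 for Cgas, from -0.0819 to 0.12 for Tmem173, from -0.0132 to 0.0768 for Tbk1, from 0.01 to 0.26 for Ikbke, from -0.11 to -0.02 for Irf3, from -0.41 to 0.38 for Enpp1, from 0.11 to 0.44 for Samhd1 and from 0.05 to 0.63 for Aim2. Adjusted p-values of Cgas ran from 0.0822 (without ATM knockout tumor 3) to 0.423 (without ATM knockout tumor 1). Tmem173 was below 0 without ATM knockout tumor 1 (-0.05), ATM knockout tumor 3 (-0.0065) or vector control tumor 2 (-0.0819), and Tbk1 without ATM knockout tumor 1 (-0.0039) or 3 (-0.0132). Enpp1 was above 0 without ATM knockout tumor 1 (0.19), ATM knockout tumor 3 (0.09) or vector control tumor 3 (0.38), with at least 1 CPM in 3 libraries (0.0064), library size alone (0.0226), limma-voom (0.0095), no filter (0.0013) and the replicate block (0.0087). Rnaseh2c was above 0 with library size alone (0.0036) and without ATM knockout tumor 3 (0.0203) or vector control tumor 2 (0.0311). Its leave-one-out values ran from -0.0931 to 0.0311, and those of Atm from -0.0333 (without ATM knockout tumor 2) to 0.1951. The cause of these shifts was not tested.

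Over all genes edgeR called 347 higher and 431 lower, and DESeq2 920 and 1150. With 1 tumor left out the calls ran from 0 to 587 higher and from 2 to 622 lower. The replicate block left 0 calls in either direction over all genes, 0 in each pathway list and 0 among members. Deviations from the group means had correlations of 0.0437, -0.272 and -0.42 between same-numbered tumors. Between tumors of different number they ran from -0.234 to 0.439. The labels do not say whether the number pairs tumors, and with 3 tumors per group these correlations cannot settle it. Library size alone called 504 higher and 356 lower, 58.6% higher against 44.6%, and 1 CPM in 3 libraries 516 and 467.

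Calls in pathway lists moved as follows. DESeq2 called 2 other DNA sensors, 7 STING regulators (3 higher, 4 lower), 1 TBK1 adaptor gene, 1 inflammasome gene and 2 targets. STING regulator calls were 4 with 1 CPM in 3 libraries, 4 with library size alone, 3 with no filter and 2 with non-robust dispersions. The 1 call among cGAMP genes fell to 0 with library size alone, no filter and non-robust dispersions. Hybrid removal genes kept 1 call with library size alone and 1 with no filter. The call among targets fell to 0 with library size alone, limma-voom and non-robust dispersions. With 1 tumor left out, calls ran from 0 to 4 for STING regulators, from 0 to 1 for hybrid removal and were 0 in the other 5 lists. List medians then ran from -0.62 to -0.27 for targets, from -0.23 to 0.15 for inflammasome genes, from -0.07 to 0.03 for TBK1 adaptors and from -0.07 to 0.04 for hybrid removal. Depth limits Ifnb1, at no more than 3 counts, and Trex1 has no usable count.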
